A study of Mus musculus with 4 samples.

Results

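Neural progenitors of the dorsal and the ventral mouse forebrain were compared at embryonic day E18.5 in 2 single-cell RNA libraries. The libraries were chosen by the region that the names of the deposited files give, CTX (cortex, dorsal) or GE (ganglionic eminence, ventral). The members were all cell barcodes with at least 1000 detected genes and at most 10% of their UMIs (unique molecular identifiers, counted transcripts) from mitochondrial genes: 1148 of 1153 barcodes of the CTX-named library and 3104 of 3139 of the GE-named library. Together these 4252 barcodes made up most of the 6296 that passed in the 4 libraries of the series. The pair of libraries from E15.5 embryos, named in the same manner, gave the earlier age for comparison with 876 CTX-named and 1168 GE-named barcodes.

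The embryos of both regions and both ages came from a cross of heterozygous Nestin-GFP with homozygous DCX-mRFP mice and carried both reporters. Cortices or ganglionic eminences were dissociated mechanically, and cells sorted for green fluorescence were loaded on the 10x Chromium 3' v2 system, about 10000 cells a library. No group received a treatment. The Nestin-GFP reporter decides which cells are in all 4 libraries, so these are green cells and not the whole tissue. The sources used here do not give the number of embryos, their sex or whether they were pooled. Each region and age has 1 library, so no comparison here has a replicate and none has a p-value. All intervals are exact 95% intervals that cover counting error only, not differences between embryos or preparations.

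The sample titles give the other region in all 4 cases: both CTX-named libraries are labelled ganglionic eminence, and both GE-named libraries are labelled cortex. The genes that define the regions follow the file names. Emx1, a homeobox gene of the dorsal forebrain, was at 38 CPM (UMIs summed over all cells of a library, per 1000000 UMIs) in the CTX-named E18.5 library and at 1.23 CPM in the GE-named one, and at 278 and 1.32 CPM at E15.5. Nkx2-1, the homeobox gene that specifies the medial ganglionic eminence, was at 1.81 CPM in the CTX-named and 115 CPM in the GE-named E18.5 library, and at 0.982 and 268 CPM at E15.5. Levels of both genes therefore go against the titles at both ages, and every direction below is given for the file name. A reader who takes the titles has to exchange the regions throughout.

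Dorsal progenitors of the forebrain give rise to glutamatergic neurons and ventral progenitors to GABAergic neurons, many of which migrate into the cortex. Towards birth both regions turn to making glia. Oligodendrocyte precursors are known to arise from ventral progenitors first and from dorsal progenitors later.

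The E18.5 libraries held 14479547 and 29257834 UMIs in the kept barcodes, with a median of 10124 UMIs a cell (CTX-named) and 8799.5 (GE-named); the E15.5 cells were deeper, with medians of 23447 and 16404. Only 4 barcode sequences were shared by the E18.5 pair. Barcodes with UMIs of both Xist and Y-linked genes, which 1 cell of either sex should not show, made up 11.8% of the CTX-named and 6.19% of the GE-named E18.5 barcodes. At E15.5 they made up 55.7% and 36.1%. These shares count all UMIs of a cell, so libraries of different depth cannot be compared by them. The part of such barcodes in the E15.5 ratios was not tested. Among markers of other cells, the 10 endothelial markers summed to 86.9 against 17.7 CPM at E18.5 (CTX-named against GE-named), with Cldn5, Cdh5 and Ly6c1 at 0 in the GE-named library, and the 10 mural markers to 222 against 94.1 CPM. The 11 microglial markers summed to 15.6 against 52.4 CPM, with 7 of them at 0 in the CTX-named library, including Csf1r and Cx3cr1. The 9 choroid plexus markers summed to 1.12 against 11.6 CPM, and the 9 erythroid markers to 8.6 against 11.9 CPM.

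Across the whole transcriptome, more genes were higher in the CTX-named than in the GE-named library at E18.5, and the regions differed in fewer genes than at E15.5. A gene was called when its summed CPM differed at least 2-fold, the interval of the ratio excluded 1, and it reached 20 CPM in at least 1 of the libraries compared. Of 7707 genes that reached 20 CPM at E18.5, 399 (5.18%) were called, 288 higher in the CTX-named library (3.74%) and 111 higher in the GE-named library (1.44%). At E15.5, 829 of 7311 genes (11.3%) were called, 449 (6.14%) higher in the CTX-named and 380 (5.2%) in the GE-named library. The E18.5 split depends on the scaling: with edgeR's TMM factors, which lower every E18.5 log2 ratio by 0.16, the calls were 189 and 175, so that the share higher in the CTX-named library went from 72.2% to 51.9%.

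Genes that were higher in the GE-named library at E18.5 were mostly so at E15.5 too, whereas many that were higher in the CTX-named library were not. Of the 111 genes higher in the GE-named library, 89 (80.2%) had the same call at E15.5 and none had the opposite one. Of the 288 higher in the CTX-named library, 124 (43.1%) had the same call and 4 the opposite one. The shared calls were 27.6% of the E15.5 calls higher in the CTX-named and 23.4% of those higher in the GE-named library. A further 134 genes (1.74% of those measured) were higher in the CTX-named library at E18.5 while at E15.5 they either had a ratio whose whole interval lay within 1.5-fold (16 genes, called level below) or stayed under 20 CPM in both libraries (118 genes). The same was true of 15 genes (0.195%) higher in the GE-named library, 6 level and 9 under the minimum. Low level is not the same as no difference: read without the minimum, 43 of the 118 genes were already at least 2-fold higher in the CTX-named E15.5 library with an interval excluding 1, 18 were within 1.5-fold and 9 differed in the opposite direction. Of the 9 GE-named genes, 6 already differed in the same direction and 2 in the opposite one.

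**Figure D1:**
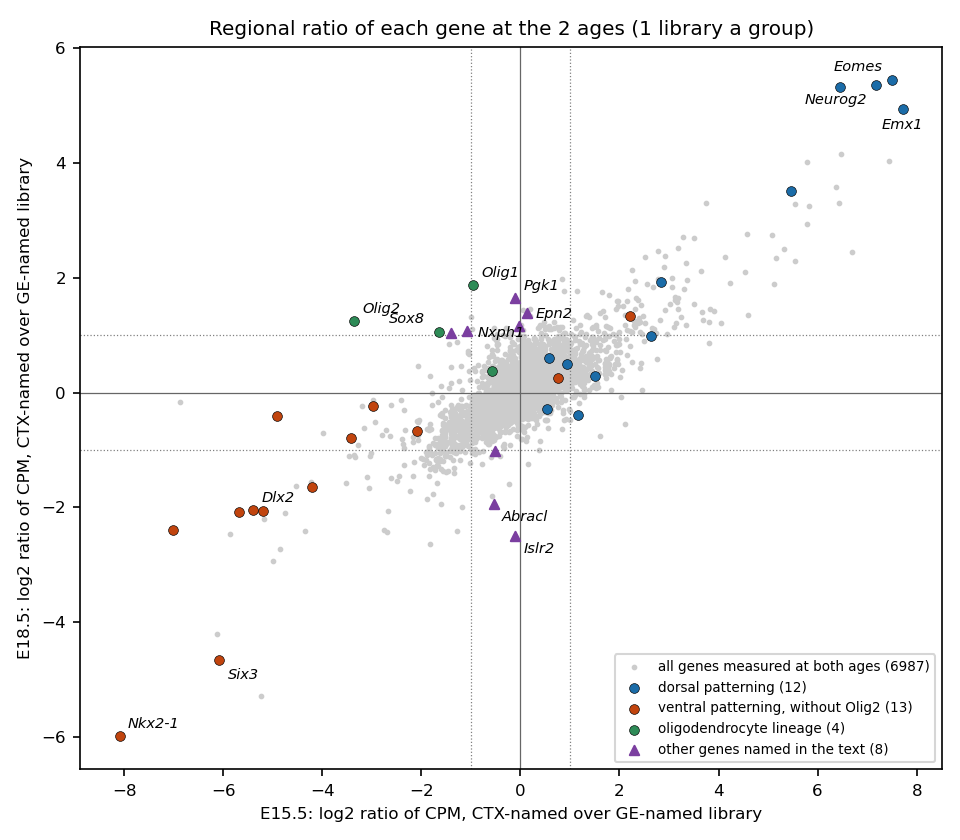
Each point is 1 gene that was measured at both ages. The log2 ratio of summed CPM (CTX-named over GE-named) is on the horizontal axis for E15.5 and on the vertical axis for E18.5. Colours mark the dorsal, ventral and oligodendrocyte lists, and triangles other named genes. Emx1 (7.72 and 4.95) and Nkx2-1 (-8.09 and -5.99) lie at opposite corners, whereas Olig2 (-3.35 and 1.24) changes side between the ages. Genes under 20 CPM at E15.5, such as Crym, are not drawn.

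The regional transcription factors still separated the libraries at E18.5, with smaller ratios than at E15.5. Of the 16 genes on the dorsal list, 12 were measured and 6 were called, all higher in the CTX-named library, with a median log2 ratio of 1.45 against 0.09 over all genes measured. The 6 were Emx1, Pax6, Neurog2, Tfap2c, Dmrta2 and Eomes. Eomes, the T-box factor of intermediate progenitors, was at 148 CPM in the CTX-named and 3.39 CPM in the GE-named library, a ratio of 43.6 (34.9 to 55.3). Neurog2, the proneural factor of the glutamatergic lineage, was at 223 and 5.43 CPM, a ratio of 41 (34.3 to 49.4). Pax6, which marks dorsal radial glia but is not confined to them, was at 194 and 51 CPM, a ratio of 3.8 (3.54 to 4.08). Emx2 (48.8 and 40.2 CPM) and Lhx2 (331 and 168 CPM) did not pass at E18.5, although both were called at E15.5, where 10 of 13 measured dorsal genes were called and the median log2 ratio was 2.83.

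Of the 18 ventral genes, 14 were measured at E18.5; 7 were higher in the GE-named library and 2, Olig2 and Gas1, in the CTX-named library, with a median log2 ratio of -1.22. At E15.5 the counts were 14 and 1 of 16 measured, with a median of -5.05. Nkx2-1 was 63.7-fold (41.6 to 103) and Six3, a forebrain homeobox gene, 25.2-fold (18.3 to 35.8) higher in the GE-named E18.5 library. Dlx1 and Dlx2, which drive the GABAergic programme, were at 147 and 186 CPM in the CTX-named library against 624 and 768 CPM in the GE-named one, ratios of 4.24 and 4.14. In the CTX-named E15.5 library the same genes had been at 15.9 and 23.8 CPM, so that their CTX-named levels were several times higher at E18.5. Gsx2, a ventral progenitor factor, was at 54.6 and 72.8 CPM at E18.5 (log2 ratio -0.41) against 3.76 and 114 CPM at E15.5 (-4.92).

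To ask which cells carried these genes, every cell was thinned to 4000 UMIs and passed through 4 gates of 5 genes each. The glial gate required 3 UMIs of Slc1a3, Mfge8, Aldoc, Ddah1 and Gja1, the oligodendrocyte gate 2 UMIs of Pdgfra, Cspg4, Sox10, Lhfpl3 and Gpr17, the Dlx gate 3 UMIs of Dlx1, Dlx2, Dlx5, Dlx6os1 and Gad2, and the excitatory gate 2 UMIs of Neurod2, Neurod6, Eomes, Tbr1 and Neurog2. A gate is a range of a score and not a cell type. At E18.5 the thinning left out 286 shallower GE-named cells and no CTX-named cell.

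The glial and oligodendrocyte gates took larger shares of the CTX-named cells, and the Dlx gate a larger share of the GE-named cells. The glial gate held 66.3% (63.5 to 69) of the CTX-named cells and 41.1% (39.2 to 42.9) of the GE-named cells, a ratio of 1.61 (1.47 to 1.77). The oligodendrocyte gate held 17.9% (15.7 to 20.2), or 205 of 1148, against 3.23% (2.61 to 3.95), or 91 of 2818, a ratio of 5.53 (4.3 to 7.16). At E15.5 it held 8 CTX-named and 9 GE-named cells, 0.913% and 0.771%. The Dlx gate held 24.8% (22.4 to 27.4) of the CTX-named and 66.4% (64.6 to 68.1) of the GE-named E18.5 cells, against 4.11% and 87.5% at E15.5. The excitatory gate held 14.4% (12.4 to 16.5) and 0.639% (0.379 to 1.01) at E18.5, against 90.2% and 1.28% at E15.5. In the CTX-named libraries the Dlx share was thus higher, and the excitatory share lower, at E18.5 than at E15.5.

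Gates overlapped: 24.8% of the CTX-named and 14.3% of the GE-named E18.5 cells passed more than 1. Many cells lay near a threshold, since 54 of the 205 CTX-named cells in the oligodendrocyte gate were exactly at it and 124 more were 1 UMI below it, against 18 at it and 73 below it in the GE-named library. UMIs of free RNA add to such scores, and their part in the shares was not tested. With each threshold moved 1 UMI up or down, or with thinning to 2500 UMIs, all 4 share ratios kept their direction.

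**Figure D2:**
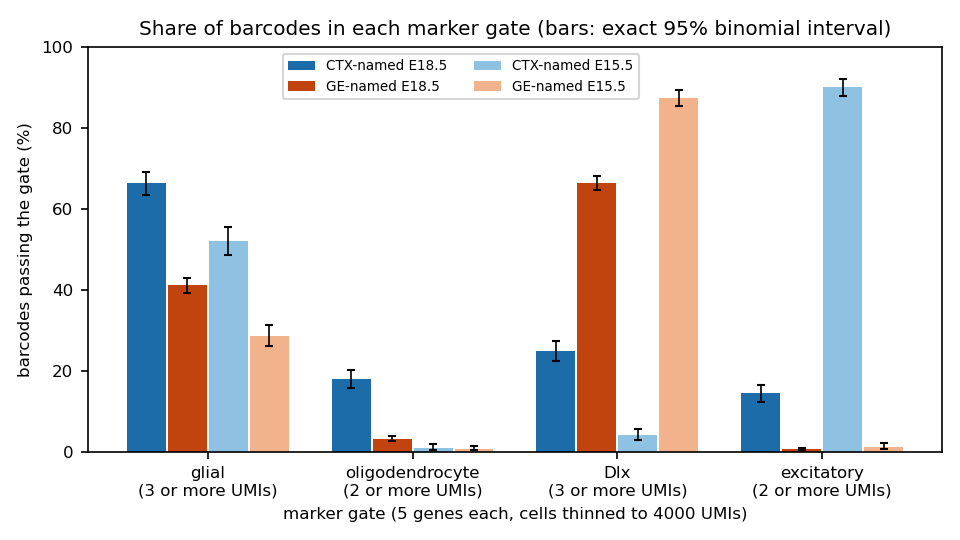
Bars give the percentage of cells, thinned to 4000 UMIs, that passed each of 4 marker gates in each of the 4 libraries, and the lines on them exact 95% binomial intervals. The oligodendrocyte gate stands at 17.9% in the CTX-named E18.5 library and at 3.23% or less in the other 3.

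Oligodendrocyte lineage genes were higher in the CTX-named library at E18.5, whereas no measured member was called in that direction at E15.5. Of the 16 genes on the list, 13 were measured and 11 were called, all 11 higher in the CTX-named library, with a median log2 ratio of 1.87. With TMM scaling 8 of 12 measured were called. At E15.5, 4 were measured and 2, Olig2 and Sox8, were called, both higher in the GE-named library. The promoters of 3 of the 11 called members are shown as examples. None of the 11 was called in the same direction at E15.5, so this does not set the 3 apart. The promoter sequences used here held none for Olig1 or Sox10. Promoter sequences are those of RefSeq on GRCm38.p6 and run from 250 bases before to 50 bases after the transcription start, on the plus strand in all 3 cases. Capitals mark every match, on either strand, to CANNTG (the E-box core bound by basic helix-loop-helix factors such as OLIG2) or ACAAT (a SOX core). The first was found in 72.3% and the second in 31% of all 32817 promoters of this length, so a match describes the sequence and no more. The Olig2 promoter (chr16:91225300-91225599) has 1 SOX match and no E-box match, that of Pdgfra (chr5:75152001-75152300) 2 E-box matches, and that of Cspg4 (chr9:56864854-56865153) 1 SOX match.
Olig2: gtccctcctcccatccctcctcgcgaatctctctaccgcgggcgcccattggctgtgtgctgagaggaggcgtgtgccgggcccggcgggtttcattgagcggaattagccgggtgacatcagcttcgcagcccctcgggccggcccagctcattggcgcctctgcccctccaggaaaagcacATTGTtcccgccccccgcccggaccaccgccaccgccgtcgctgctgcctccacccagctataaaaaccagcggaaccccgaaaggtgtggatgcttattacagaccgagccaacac
Pdgfra: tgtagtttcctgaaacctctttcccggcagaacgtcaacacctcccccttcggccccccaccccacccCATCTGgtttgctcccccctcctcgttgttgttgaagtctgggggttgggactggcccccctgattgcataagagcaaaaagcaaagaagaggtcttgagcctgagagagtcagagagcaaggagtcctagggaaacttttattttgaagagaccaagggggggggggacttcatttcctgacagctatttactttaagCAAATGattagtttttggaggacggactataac
Cspg4: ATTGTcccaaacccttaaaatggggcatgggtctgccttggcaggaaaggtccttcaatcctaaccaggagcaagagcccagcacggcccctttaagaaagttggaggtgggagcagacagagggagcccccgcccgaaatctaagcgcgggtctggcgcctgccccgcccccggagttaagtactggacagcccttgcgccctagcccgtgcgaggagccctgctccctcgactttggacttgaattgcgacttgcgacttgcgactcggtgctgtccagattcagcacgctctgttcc

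Olig1 and Olig2 are neighbouring basic helix-loop-helix factors on chromosome 16 that are needed for the lineage. Olig2 (GRCm38 chr16:91225457-91228677) was at 481 CPM in the CTX-named and 203 CPM in the GE-named E18.5 library, but at 12.6 and 129 CPM at E15.5. The CTX-named level was thus the lowest of the 4 at E15.5 and the highest at E18.5. The E18.5 ratio was 2.37 (2.28 to 2.46), and the log2 ratio went from -3.35 to 1.24, a difference of 4.60 (4.42 to 4.78). Olig1 (GRCm38 chr16:91269772-91271933) was at 1209 and 330 CPM at E18.5, a ratio of 3.67 (3.57 to 3.77), and at 30.3 and 58.4 CPM at E15.5. Its log2 ratio of -0.95 at E15.5 fell just short of the 2-fold call.

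Of the receptors, Pdgfra, the PDGF receptor of oligodendrocyte precursors, was at 140 CPM in the CTX-named and 24 CPM in the GE-named E18.5 library, a ratio of 5.85 (5.31 to 6.44). At E15.5 it was at 7.73 and 8.93 CPM, under the minimum in both. Pdgfra also stood on the list of fibroblast and meningeal markers, and Cspg4 (the NG2 proteoglycan) on that of mural markers. Egfr, the EGF receptor, was at 114 and 65.1 CPM at E18.5, a ratio of 1.76 (1.63 to 1.89) that did not reach 2-fold, and at 1.32 and 16.8 CPM at E15.5. Sox10, a transcription factor of the lineage, was at 48.5 and 10.2 CPM at E18.5, a ratio of 4.74 (4.07 to 5.54), and below 3 CPM in both E15.5 libraries. Genes of later precursors showed ratios of the same order: 4.96 (3.9 to 6.36) for Gpr17, a receptor of committed precursors, and 4.39 (3.71 to 5.22) for Bcas1. Gpr17 stood near the minimum, at 20.2 CPM in the CTX-named library, and fell below it with TMM scaling. Cnp, a myelin enzyme, was at 117 and 58.1 CPM and only just passed, at 2.02 (1.87 to 2.17). Cspg5 and S100a13 did not pass (log2 ratios 0.38 and 0.22), and Nkx2-2, Neu4 and Matn4 were under 20 CPM.

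Olig2, Sox8, Nxph1 and Lrrn1 were the 4 genes called in opposite directions at the 2 ages. Sox8, a SOXE factor of glia, was at 135 and 64.6 CPM at E18.5 and at 11.1 and 34.6 CPM at E15.5. Nxph1, which encodes the secreted neurexin ligand neurexophilin, was at 70.2 and 33.2 CPM and earlier at 11.9 and 24.9 CPM. Lrrn1, which encodes a leucine-rich repeat membrane protein, was at 109 and 53 CPM and earlier at 17.9 and 47.5 CPM. The E18.5 ratios of the last 3 (2.08, 2.12 and 2.06) were near the threshold, and with TMM scaling their log2 ratios were 0.90, 0.92 and 0.88, under it.

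Within the cells of the oligodendrocyte gate, 1 of these genes was called between the regions. This comparison, over the 205 and 91 cells that passed the gate whatever other gates they passed, was added after values had been seen, and the 5 gate genes themselves were left out. Of 7832 genes measured there, 3.56% were called: 208 (2.66%) were higher in the CTX-named and 71 (0.907%) in the GE-named cells. Olig2 was at 1162 CPM in the CTX-named and 1255 CPM in the GE-named gate cells, and Olig1 at 3250 and 3749 CPM. Of 10 list members measured, 1 was called, S100a13, lower in the CTX-named cells (51.6 against 144 CPM), and the median log2 ratio was -0.23. In the summed libraries fewer cells of a type and less RNA per cell cannot be told apart. The gate does not separate them either, since it selects cells by UMIs of the same lineage and lower RNA per cell would also lower the share past its threshold.

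The gate cells of the 2 regions still differed in regional genes. Many of them also passed another gate: 62 of the 205 CTX-named and 25 of the 91 GE-named cells passed this gate alone. Pax6 was at 89.8 CPM in the CTX-named and 19.4 CPM in the GE-named gate cells, a ratio of 4.62. Dlx1 and Dlx2 were at 36 and 44.1 CPM in the CTX-named and at 112 and 125 CPM in the GE-named gate cells. Six3 was at 2.69 and 63.1 CPM, and Eomes at 46.2 CPM in the CTX-named cells with 0 UMIs in the GE-named cells, at least 9.52-fold higher against a floor of 3 UMIs over the group. Eomes is itself a gene of the excitatory gate, and Dlx1 and Dlx2 are genes of the Dlx gate. What part cells that also passed those gates have in these differences was not tested. The GE-named group rests on 91 cells, and whether free RNA of neighbouring cells adds to these genes was not tested.

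**Figure D3:**
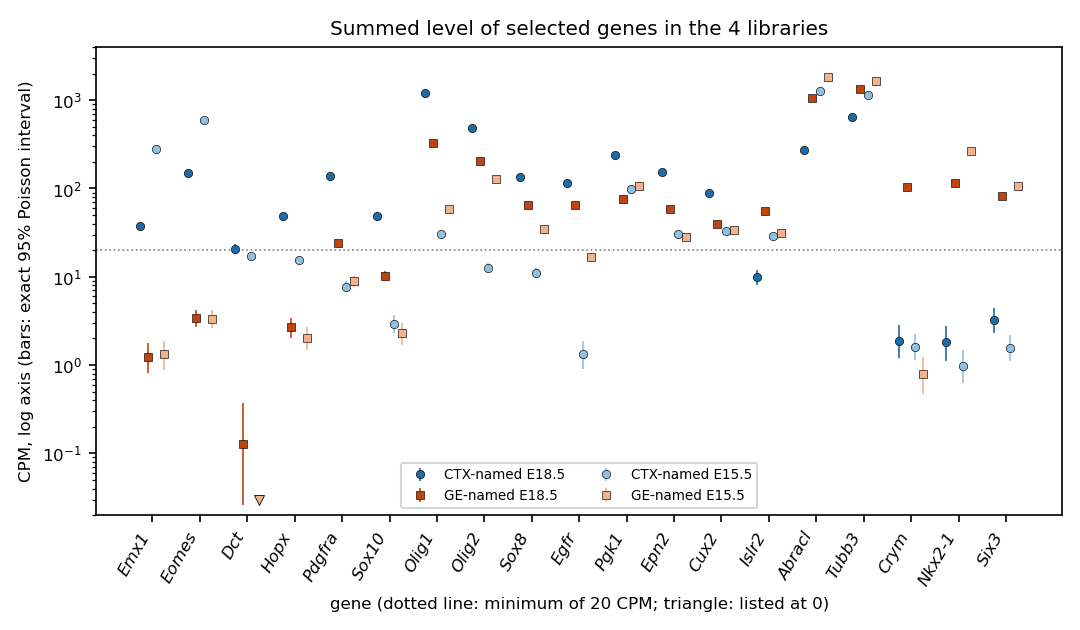
Points give the summed CPM of 19 named genes in each of the 4 libraries on a log vertical axis, with the genes along the horizontal axis. Olig1, Olig2 and Pdgfra are highest in the CTX-named E18.5 library, at 1209, 481 and 140 CPM, and Crym is above 2 CPM only in the GE-named E18.5 library, at 103 CPM.

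The genes of growth factor signalling and of radial glia that passed 2-fold were all higher in the CTX-named library. That call was made for 3.74% of all genes measured, whose median log2 ratio was 0.09. Of the 16 genes on the EGF, FGF and ERK list, 14 were measured and 4 were called, the feedback inhibitors Spry1, Spry4 and Dusp6 and the ETS factor Etv4, with a median log2 ratio of 0.80. Etv4 was at 46.5 CPM in the CTX-named and 17.4 CPM in the GE-named library, and at 7.38 and 4.75 CPM at E15.5. Spry1 was at 47 and 18.9 CPM, and earlier at 6.87 and 4.57 CPM. Within the glial gate none of 13 measured members of this list was called and the median log2 ratio was 0.09. None of 13 was called within the oligodendrocyte gate either, with a median of 0.30. Within the Dlx gate 3 of 10 were called, all higher in the CTX-named cells, with a median of 0.73. That call was made for 5.77% of all genes measured in the Dlx gate.

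Of 7 measured genes on the BMP and ID list, 3 were called: Id2 and Id3, which block basic helix-loop-helix factors, and the ligand Bmp7. Id3 was at 518 CPM in the CTX-named and 207 CPM in the GE-named library, a ratio of 2.5 (2.41 to 2.6), and at 27.9 and 55.8 CPM at E15.5. None of 8 measured BMP and ID genes was called within the glial gate. Within the Dlx gate 2 of 6 were higher in the CTX-named cells, among them Id3 (178 and 16.5 CPM). All 18 cholesterol synthesis genes had ratios above 1 at E18.5, with a median log2 ratio of 0.76, but 4 passed, among them Hmgcs1 and Idi1, and none did with TMM scaling. Within the glial gate the median of that list was 0.26 and none passed.

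Of 18 measured radial glia and Notch genes, 3 were called, Hopx, Tnc and Ednrb, all higher in the CTX-named library, and 2 with TMM scaling. The median log2 ratio of this list was 0.68 in the summed libraries. Within the glial gate 2 of 17 measured were called and the median log2 ratio was 0.06. Hopx, a homeodomain protein of radial glia, was at 48.2 and 2.67 CPM, a ratio of 18 (13.9 to 23.8). It was under 20 CPM at E15.5 (15.6 and 2.02 CPM) but already had a log2 ratio of 2.95. Tnc, the matrix protein tenascin-C, was at 264 and 66.9 CPM, a ratio of 3.95 (3.72 to 4.2), and at 21.3 and 11.9 CPM at E15.5. Ednrb, the endothelin B receptor, was at 350 and 173 CPM, and its log2 ratio of 0.86 with TMM scaling was under the threshold. The reporter genes themselves were not called: Nes was at 167 and 93.1 CPM and Dcx at 199 and 208 CPM.

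In the summed libraries the astrocyte list had a median log2 ratio of 0.21, against 0.09 over all genes measured. Of 22 measured members 4 were called (Slco1c1, Pla2g7, Sparcl1 and Bcan), all higher in the CTX-named library. That call was made for 3.74% of all genes measured. With TMM scaling 1 was higher and 1 lower, with a median of 0.05. Aqp4, the astrocyte water channel, was at 29.5 and 28 CPM at E18.5, a ratio of 1.05 (0.92 to 1.2), and below 1 CPM in both E15.5 libraries. Apoe, the main apolipoprotein of astrocytes, was at 900 CPM in the CTX-named and 1631 CPM in the GE-named library, a 1.81-fold difference that did not reach the threshold.

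The genes that were level at E15.5 and higher in the CTX-named library at E18.5 are known for different roles. Pgk1 (phosphoglycerate kinase, a glycolytic enzyme; GRCm38 chrX:106187100-106203699) had the interval farthest from 1. It was at 238 CPM in the CTX-named and 76.1 CPM in the GE-named E18.5 library, a ratio of 3.13 (2.95 to 3.32), and at 97.7 and 106 CPM at E15.5. The GE-named E18.5 level was the lowest and the CTX-named E18.5 level the highest of the 4. Pgk1 was called within the glial gate (271 and 88.3 CPM) and the Dlx gate (139 and 68.8 CPM). Within the oligodendrocyte gate it was at 309 and 163 CPM, a log2 ratio of 0.92 that did not pass, and in cells that passed no gate at 329 and 87.6 CPM. Of the 12 measured genes of glycolysis and hypoxia, Pgk1 was the only member called, and Eno1 (968 and 494 CPM) and Ldha (748 and 555 CPM) did not pass. Pgk1 has processed copies elsewhere in the genome, so its count is uncertain.

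Rpl10-ps3 and Rpl7a-ps5, which carry the names of ribosomal protein pseudogenes, were also in this class, and their counts cannot be separated with certainty from those of their parent genes. Epn2, an endocytic adaptor, was at 154 and 59.2 CPM at E18.5, a ratio of 2.61, and at 30.9 and 28.2 CPM at E15.5. Within the oligodendrocyte gate Epn2 was at 454 and 379 CPM, not called. Cux2, a homeobox gene of upper-layer neurons and of some interneurons, was at 88 and 39.4 CPM at E18.5, a ratio of 2.23 (2.04 to 2.44), and at 33.4 and 33.9 CPM at E15.5. Further genes of this class were Ccdc85b, Lbh, Kcnip3, Rev3l, Nkd1, Tspan12 and Pcdh17, with log2 ratios between 1.04 and 1.45 at E18.5. For Kcnip3, Rev3l, Nkd1, Tspan12 and Pcdh17 the log2 ratio was 0.88 to 0.97 with TMM scaling, under the threshold.

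The 6 genes that were level at E15.5 and higher in the GE-named library at E18.5 were Islr2, Abracl, Ube2ql1, Tiam2, Csrp2 and Tubb3. Islr2 (GRCm38 chr9:58196297-58204319), which encodes a neuronal membrane protein of axon growth, was at 9.89 CPM in the CTX-named and 55.8 CPM in the GE-named library, a 5.65-fold difference (4.66 to 6.89). At E15.5 it was at 29.1 and 31.4 CPM, so the CTX-named level was lower and the GE-named level higher at the later age. Abracl, which encodes a small protein of the Costars family, was at 273 and 1057 CPM, a 3.87-fold difference (3.73 to 4.02), and at 1270 and 1847 CPM at E15.5. Tubb3, the neuronal beta-tubulin, was at 653 and 1321 CPM and stood at the threshold: its log2 ratio of -1.02 was -0.95 when each cell was weighted equally and -0.87 after thinning. Within the Dlx gate Tubb3 was at 2570 CPM in the CTX-named and 2024 CPM in the GE-named cells, the opposite direction and not called.

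Crym, which encodes the thyroid hormone-binding protein mu-crystallin (GRCm38 chr7:120186380-120202111), had the largest fold of the genes under 20 CPM at E15.5 that were higher in the GE-named library. It was at 1.89 CPM in the CTX-named and 103 CPM in the GE-named E18.5 library, a 54.6-fold difference (36 to 87.2), and at 1.62 and 0.792 CPM at E15.5. The GE-named E18.5 library stood alone. Most Crym counts were in the glial gate: 2013 of the 2432 Crym UMIs of the GE-named library lay in the 760 cells of that gate alone, which gave 326 CPM, against 4.74 CPM in the 1524 GE-named cells of the Dlx gate alone. After thinning, 20.7% of those glial gate cells and 1.51% of those Dlx gate cells had a Crym UMI. The 490 CTX-named cells of the glial gate alone held 20 Crym UMIs before thinning.

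Within the glial gate, the 2 regions were compared over 490 CTX-named and 760 GE-named cells that passed this gate and no other. The gate genes were left out. Of 7734 genes measured, 3.45% were called: 105 (1.36%) were higher in the CTX-named and 162 (2.09%) in the GE-named cells. Which side held more genes depends on the cells taken: over all cells of the glial gate, whatever other gates they passed, the counts were 136 and 116. Of 11 measured genes on the dorsal list, 5 were higher in the CTX-named and 1 in the GE-named cells, with a median log2 ratio of 0.35. Among the 5 were Emx1 (31 and 2.43 CPM), Tfap2c (37.1 and 0.971 CPM) and Dmrta2 (90.5 and 12 CPM). Hopx was at 69.1 and 8.41 CPM there, a ratio of 8.21, and Tnc at 451 and 199 CPM, a ratio of 2.27. Dct, dopachrome tautomerase of melanin synthesis, was at 28.2 CPM in the CTX-named cells with 0 UMIs in the GE-named cells, at least 58.1-fold higher against 3 UMIs over the group. Over all barcodes Dct was at 20.7 and 0.127 CPM at E18.5, and at 17.4 CPM in the CTX-named and 0 in the GE-named E15.5 library. With TMM scaling its CTX-named E18.5 level was under the 20 CPM that a call needs.

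Pdgfra was higher in the CTX-named glial gate cells as well (33.5 and 9.87 CPM, a ratio of 3.4), and Olig2 was at 482 and 332 CPM, not called. Vascular genes also led this comparison: Cldn5, an endothelial junction protein, was at 28.4 CPM in the CTX-named glial gate cells and at 0 in the GE-named ones (at least 58.5-fold higher), and Rgs5, a pericyte gene, was at 83.2 and 10 CPM. Without barcodes that had vascular, microglial or choroid plexus markers the log2 ratio of Rgs5 was 1.68 in place of 3.05. In the summed libraries Col4a1, a basement membrane collagen, lost its call and its direction by the same step (log2 ratio 1.80 with those barcodes and -0.05 without).

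On the GE-named side of the glial gate, Crym led with 3.97 CPM in the CTX-named and 326 CPM in the GE-named cells, an 82-fold difference (53 to 135). Without vascular, microglial and choroid plexus barcodes its log2 ratio was -6.20 in place of -6.36. The ventral factors Six3 (2.98 and 105 CPM) and Nkx6-2 (0.794 and 35.3 CPM) were higher in the GE-named cells, and Nkx2-1, with 0 UMIs in the CTX-named cells and 25.1 CPM in the GE-named ones, was at least 42.1-fold higher in the latter. Ntn1, the guidance molecule netrin-1, was at 3.97 and 59.1 CPM, a 14.9-fold difference, and Sfrp5, a secreted Wnt inhibitor, at 4.37 and 53.2 CPM. Otx2, a homeobox gene of several brain regions that stood on the choroid plexus list, was at 0.198 CPM (1 UMI) in the CTX-named and 24.3 CPM in the GE-named cells, and its log2 ratio was -6.93 with and -6.71 without the barcodes of other cell types. Over all glial gate cells, whatever other gates they passed, Otx2 had a log2 ratio of -5.27 and did not pass the call.

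Astrocyte genes were also on the GE-named side of this gate. Apoe was at 1573 CPM in the CTX-named and 4590 CPM in the GE-named glial gate cells, a 2.92-fold difference, against 1.81-fold over all barcodes. Fxyd1, a regulator of the sodium pump, was at 19.3 and 93.4 CPM. Of 20 measured astrocyte genes, 3 were called (Apoe, Slc6a11 and Hepacam), all higher in the GE-named cells, a call made for 2.09% of all genes measured in the gate. The median log2 ratio of the list was -0.61 against 0.05 over all genes measured in the gate. The difference in direction between the summed libraries and the gate was not tested.

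Genes of ciliated ependymal cells were higher in the GE-named glial gate cells. Of the 12 listed, 7 were measured in the gate and 6 were called, all in that direction, with a median log2 ratio of -1.90. That call was made for 2.09% of all genes measured in the gate. A gene counts as measured even when only the side where it is higher reaches 20 CPM, so the shared direction is partly built in. Foxj1, the master regulator of motile cilia, was at 14.5 CPM in the CTX-named and 49.7 CPM in the GE-named cells, and Dynlrb2, a dynein light chain, at 4.76 and 35.6 CPM. Ccdc153 and Tmem212, further ependymal markers, were at 0 in the CTX-named and below 1 CPM in the GE-named E18.5 library. In the summed libraries none of the 12 reached 20 CPM.

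**Figure D4:**
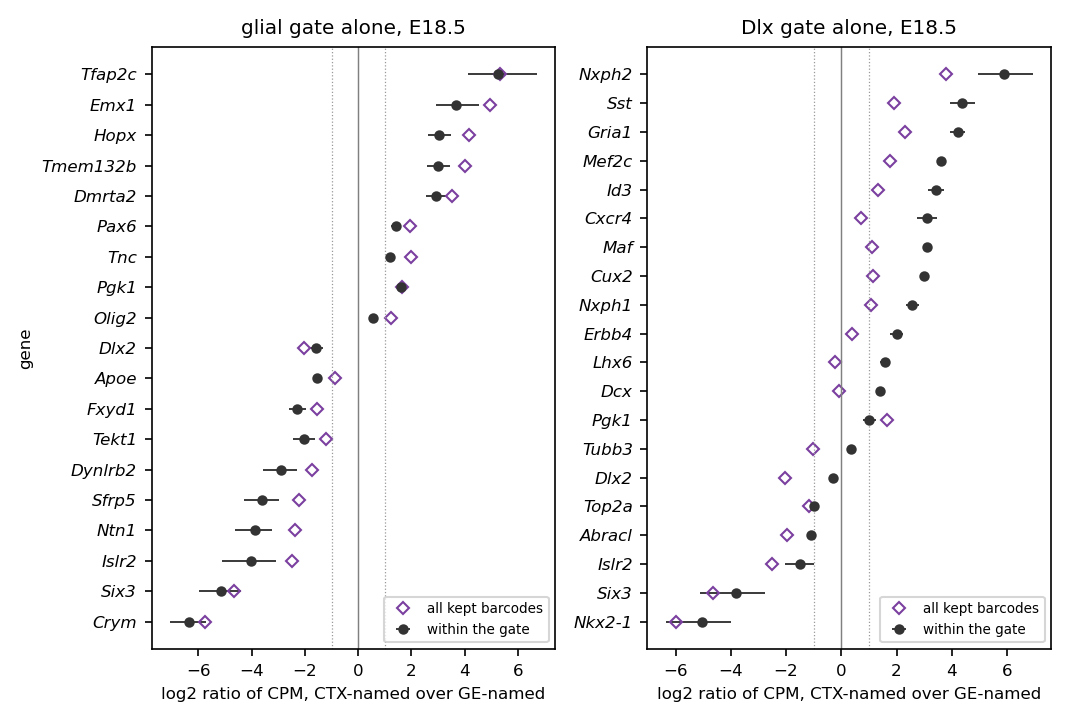
Points give log2 ratios of summed CPM (CTX-named over GE-named) at E18.5 among cells of the glial gate alone and of the Dlx gate alone, with exact 95% intervals, and diamonds give the ratio over all barcodes. Crym lies at -6.36 in the glial gate and at -5.77 over all barcodes, and Lhx6 at 1.58 in the Dlx gate and at -0.24 over all barcodes.

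The Dlx gate gave a different picture of the ventral-type cells of the 2 libraries. It was compared over 203 CTX-named and 1524 GE-named cells that passed this gate alone, a comparison added after values had been seen. Of 7279 genes measured, 7.84% were called: 420 (5.77%) were higher in the CTX-named and 151 (2.07%) in the GE-named cells. Over all Dlx gate cells, whatever other gates they passed, the counts were 329 and 85. Of 19 measured GABAergic genes, 8 were higher in the CTX-named cells and 1, Isl1, in the GE-named cells, with a median log2 ratio of 0.80. In the summed libraries the same list had 1 and 7 calls of 19 measured and a median of -0.61.

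The called genes included those of interneurons that migrate to the cortex. Lhx6, the LIM-homeobox factor of interneurons from the medial eminence, was at 278 CPM in the CTX-named and 92.7 CPM in the GE-named gate cells, a 3-fold difference. Maf was at 555 and 65.4 CPM, a ratio of 8.49, and Mef2c, a transcription factor of maturing neurons, at 641 and 52.4 CPM, a ratio of 12.2. Sst, which encodes the neuropeptide somatostatin, was at 104 and 5 CPM, and Cxcr4, the chemokine receptor of migrating interneurons, at 101 and 11.8 CPM. Cux2 was at 419 and 51.9 CPM in this gate, a ratio of 8.07 (7.18 to 9.07), against 2.23 over all barcodes. Nxph1 was at 188 and 31.8 CPM, a ratio of 5.92, whereas it was at 121 and 120 CPM in the oligodendrocyte gate. Dcx, the doublecortin gene of migrating neuroblasts, was at 827 and 315 CPM, a ratio of 2.63.

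The ventral patterning list was divided within this gate. Of 13 measured members 5 (Nkx2-1, Gsx1, Six3, Isl1 and Meis2) were higher in the GE-named cells and 2 (Lhx6 and Sp8) in the CTX-named cells, with a median log2 ratio of -0.17. Nkx2-1 was at 5.33 CPM in the CTX-named and 174 CPM in the GE-named Dlx gate cells, a 32.7-fold difference. Gsx1, a ventral progenitor factor, was at 12.9 and 87.1 CPM, and Six3 at 5.33 and 74.9 CPM. All 18 genes of the S phase list and all 18 of the G2/M list had lower levels in the CTX-named cells of this gate. On each list 3 passed 2-fold, and the median log2 ratios were -0.80 and -0.76. Of all genes measured in this gate, 2.07% were called in that direction. Top2a, the topoisomerase of dividing cells, was at 449 and 876 CPM, not called.

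Over all barcodes the cell cycle lists showed the same side. Of 18 S phase genes 4 were called and of 18 G2/M genes 5, all higher in the GE-named library, with median log2 ratios of -0.56 and -0.79. That call was made for 1.44% of all genes measured. With TMM scaling 5 and 8 were called. Top2a was at 298 CPM in the CTX-named and 672 CPM in the GE-named library, and Mki67, the proliferation marker, at 179 and 275 CPM, not called. Within the glial gate no gene of either list was called and the medians were 0.23 and 0.05. Within the oligodendrocyte gate the lists lay on the other side. There 3 of 18 G2/M genes (Ccnb1, Ccnb2 and Cenpe) were higher in the CTX-named cells, with a median log2 ratio of 0.52. That call was made for 2.66% of all genes measured in this gate. None of 17 measured S phase genes was called there, with a median of 0.29. The lower cell cycle levels of the CTX-named library thus stood beside its smaller share of Dlx gate cells, 24.8% against 66.4%, and what part that share has in them was not tested.

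The genes called at E18.5 kept their calls within the gates in part. The summed libraries that set the classes include these gate cells, so agreement is partly built in. A gene also counts as measured when only the region where it is higher reaches 20 CPM. Of all genes measured, 1.36% were called higher in the CTX-named cells of the glial gate, 5.77% in the Dlx gate and 2.66% in the oligodendrocyte gate. The shares called higher in the GE-named cells were 2.09%, 2.07% and 0.907%. Of the 124 genes higher in the CTX-named library at both ages, the same call was made for 37 of 98 measured in the glial gate, 34 of 45 in the Dlx gate and 26 of 96 in the oligodendrocyte gate. Of the 16 that were level at E15.5 it was made for 7 of 16, 6 of 14 and 1 of 16 in these gates, and of the 118 under the minimum for 25 of 89, 19 of 27 and 13 of 87. Of the 89 genes higher in the GE-named library at both ages, the call was made for 14 of 55 in the glial gate, 42 of 84 in the Dlx gate and 10 of 45 in the oligodendrocyte gate. For the 6 that were level at E15.5 the counts were 1 of 4, 3 of 6 and 0 of 3, and for the 9 under the minimum 6 of 7, 0 of 3 and 1 of 2. Calls in the opposite direction numbered 1 among the genes higher in the CTX-named library at both ages in the glial gate, 1 among those under the minimum in the oligodendrocyte gate, and 1 among the genes higher in the GE-named library at both ages in that gate.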

How the data were processed

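The deposited files hold UMI counts per gene and barcode, which the authors made with Cell Ranger 1.3.1 on mm10 and handled with Seurat, per the submitters' processing notes. The sources used here do not name the annotation release or the rule for calling cells. Every value in the files is a whole number. Counts of the kept barcodes were summed per library and scaled to CPM over 27998 gene identifiers without 13 mitochondrial, 85 ribosomal protein and 10 haemoglobin genes. Ratios carry exact conditional binomial 95% intervals (scipy 1.17.1), and a fold against 0 UMIs uses a floor of 3 UMIs. With 1 library a group there is no test across samples. Libraries were grouped by file name, which the titles contradict. Doublet-like barcodes were scored with Scrublet in scanpy 1.11.5 and kept, and left out as an alternative. TMM factors came from edgeR 4.0.16. The ratio and call steps were tested on simulated data. Gene positions are GENCODE M21 (GRCm38), promoters RefSeq (GRCm38.p6).

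Genes were named by rule: the 10 with the interval bound farthest from 1 in each direction at E18.5 and within the glial gate, the 15 of each direction that were level and the 5 that were under the minimum at E15.5, up to 4 members of each of 30 lists, genes called in opposite directions, and 16 genes always named. Predicted genes, Xist, Tsix and Y-linked genes were left out of naming, and some genes that the rule picks are not reported here. Further members of a list, and the genes of the Dlx and oligodendrocyte gates, were chosen after their values were seen. The libraries, lists and comparisons were chosen with earlier results of these data known. No list is independent evidence. Of all genes measured at E18.5, 3.74% were called higher in the CTX-named and 1.44% in the GE-named library. Of the lists not described above, 5 interferon and 7 immediate early genes were measured with no call. Higher in the CTX-named library were 1 of 8 Wnt genes, 2 of 5 Hedgehog genes (Gas1 and Cdon) and 4 of 14 gliogenic factors. With TMM scaling no Wnt gene, the same number of Hedgehog genes and 3 gliogenic factors were called. Of 8 excitatory neuron genes 5 were higher and 1, Bcl11b, lower in the CTX-named library. Of 12 pan-neuronal genes Rbfox3 was higher and Tubb3 lower in the CTX-named library, and of 11 intermediate progenitor and proneural genes 3 were higher. Of 12 measured extracellular matrix genes 5 (Sparcl1, Tnc, Bcan, Ptn and Col4a1) were higher in the CTX-named library, 3 with TMM scaling, and within the glial gate 2 were higher and 2 lower of 13. The 10 fibroblast markers summed to 158 against 31.9 CPM, of which Pdgfra, also an oligodendrocyte gene, gave 140 and 24 CPM, the 12 ependymal to 42.6 against 86.4 CPM and the 8 Cajal-Retzius to 27.7 against 21.5 CPM.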

Additional observations from a re-analysis of the deposited data

Results flagged for a closer look

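For 4 genes the 2 ages gave calls in opposite directions, and with 1 library a group this difference was not tested. The log2 ratio of CTX-named over GE-named was 1.24 for Olig2 at E18.5 and -3.35 at E15.5. For Sox8 it was 1.06 and -1.64, for Nxph1 1.08 and -1.07, and for Lrrn1 1.04 and -1.40.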

How the results depend on the processing

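The number of genes called at E18.5 (288 higher in the CTX-named, 111 in the GE-named library) followed the settings of the call. The counts were 189 and 175 with TMM scaling, 1316 and 451 with no minimum CPM, 126 and 60 with a minimum of 50 CPM, and 98 and 34 with a 3-fold threshold. The genes level or under the minimum at E15.5 (134 and 15) numbered 89 in the CTX-named direction with TMM scaling, 73 with no minimum, 72 with 50 CPM and 40 with 3-fold, and in the GE-named direction 9 with 50 CPM and 6 with 3-fold. Within the Dlx gate 85 genes in place of 151 were higher in the GE-named cells when cells of other gates were included, an alternative added after seeing the data. The other alternatives left these counts within 1.5-fold, and all share ratios of the 4 gates kept their direction and side. A similar count did not mean the same genes. Of the 134 and 15 genes, 34 and 6 were kept with no minimum CPM, 103 and 9 after thinning, and 134 and 14 with all deposited barcodes. Of 1006 values of named genes under alternatives, 939 kept direction and call, 57 lost the call (in part by falling under 20 CPM) and 9 gained it. The remaining 1, Col4a1, was reversed (-0.05 without vascular, microglial and choroid plexus barcodes). That step left out markers that stand on more than 1 list. No paired analysis was possible because each group holds 1 library. Depth limits genes near 20 CPM: the shallower library summed to 11631315 UMIs for CPM, and differences between embryos have no estimate.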
